A study of Mus musculus with 20 samples.

Results

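Livers of mice with the genotype label AdEpsKO (called KO here) were compared with livers of wild-type (WT) mice by RNA sequencing, across all expressed genes. The comparison used the 10 liver libraries of the 20 in the series, 5 KO and 5 WT, chosen by their titles; the other 10 libraries are gonadal fat pad of the same 2 genotypes. All mice were on a C57BL/6 background, ate a high-fat diet for 1 week and were fasted for 6 h before tissue was taken, so the diet and the fast are shared by both groups. The series describes the KO mice as lacking PKCε, the epsilon isoform of protein kinase C, which Prkce encodes. The sources used here do not expand the label AdEpsKO, so they do not say in which cells Prkce was deleted or by which Cre driver. Of 48440 genes in the count table, 13298 passed the filter on low counts in liver and were tested. Levels are CPM (the count scaled to a library of 1000000 counts) after trimmed-mean scaling of library sizes, and they compare libraries, not genes of different length.

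PKCε is a calcium-independent protein kinase C that is activated by diacylglycerol, a lipid intermediate that builds up in liver during fat feeding. In liver it is known for phosphorylating the insulin receptor and weakening its signal. The liver itself is mostly hepatocytes, which make plasma proteins, glucose, bile acids and lipoproteins, and it also holds Kupffer cells (the resident macrophages), endothelial cells, stellate cells and blood.

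Total expected counts ran from 13836370 to 20784145 per liver library, and did not separate the genotypes (exact permutation test, p = 0.127). The hepatocyte gene Alb had the highest level of the tested genes in every library, and pancreatic Prss2 was near 0. All 10 livers had Xist, from 615 to 1675 CPM on plain library sizes, with the Y-linked Ddx3y at no more than 0.113 CPM; the labels do not give sex. Some libraries stood apart. WT 4 and WT 2 held skeletal muscle transcripts, with Acta1 at 77.6 and 42.0 CPM against 7.76 or less in the other 8. WT 2 and WT 3 held the most erythroid transcripts, with Slc4a1 at 32.9 and 31.0 CPM against 6.04 or less elsewhere. WT 4 and WT 5 held the most adipocyte transcripts, with Cfd at 12.5 and 9.33 CPM against 1.89 or less elsewhere. KO 5 had the steepest trend of level with GC content, at -0.402 log2 units per 10 points of GC, where the other 9 libraries lay between -0.036 and 0.191.

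Promoter sequences are shown for Fos and for 4 cell-division genes, chosen because most tested mitosis genes stood lower in KO liver. None of these genes passed the test adjusted over all genes. The sequences are from RefSeq (GRCm38.p6) and run from 250 bases before the start of the transcript to 30 bases after it, 5′ to 3′ on the strand of the gene. Capitals mark TTTGAA or TTTAAA (the cell cycle homology region, bound by the DREAM and MuvB complexes), CCAAT (the NF-Y motif) and TGACG (the core of the cyclic AMP response element), each searched on both strands.
Top2a: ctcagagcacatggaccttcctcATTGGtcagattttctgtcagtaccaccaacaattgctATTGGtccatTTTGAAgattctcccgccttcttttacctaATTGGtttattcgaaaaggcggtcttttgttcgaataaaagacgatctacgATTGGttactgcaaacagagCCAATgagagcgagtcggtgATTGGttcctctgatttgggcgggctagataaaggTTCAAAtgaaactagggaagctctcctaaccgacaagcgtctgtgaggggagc
Prc1: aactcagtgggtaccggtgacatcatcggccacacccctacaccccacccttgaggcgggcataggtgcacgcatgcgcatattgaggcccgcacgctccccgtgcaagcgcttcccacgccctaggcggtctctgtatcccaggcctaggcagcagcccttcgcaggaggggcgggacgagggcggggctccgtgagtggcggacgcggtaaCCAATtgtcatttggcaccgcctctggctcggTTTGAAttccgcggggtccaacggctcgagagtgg
Ccnb2: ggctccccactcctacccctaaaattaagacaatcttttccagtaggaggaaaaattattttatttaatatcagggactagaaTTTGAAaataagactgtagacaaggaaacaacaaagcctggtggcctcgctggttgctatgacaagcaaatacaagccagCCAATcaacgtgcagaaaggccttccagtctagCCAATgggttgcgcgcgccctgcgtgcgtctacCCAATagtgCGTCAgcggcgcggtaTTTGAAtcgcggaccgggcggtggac
Mki67: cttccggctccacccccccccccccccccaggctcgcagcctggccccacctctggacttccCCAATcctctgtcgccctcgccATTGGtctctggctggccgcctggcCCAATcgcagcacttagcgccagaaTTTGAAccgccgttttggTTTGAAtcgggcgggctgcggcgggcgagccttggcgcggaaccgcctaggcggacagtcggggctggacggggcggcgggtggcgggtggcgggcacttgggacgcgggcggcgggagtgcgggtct
Fos: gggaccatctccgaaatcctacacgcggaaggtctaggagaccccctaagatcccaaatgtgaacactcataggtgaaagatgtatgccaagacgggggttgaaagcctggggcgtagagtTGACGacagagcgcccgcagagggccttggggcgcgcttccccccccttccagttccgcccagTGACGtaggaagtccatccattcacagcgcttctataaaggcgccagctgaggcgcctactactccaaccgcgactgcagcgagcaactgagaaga
These stretches lie at chr11:99024160-99024439 (Top2a, minus strand), chr7:80294201-80294480 (Prc1, plus strand, the first of 2 listed starts), chr9:70421525-70421804 (Ccnb2, minus), chr7:135716350-135716629 (Mki67, minus) and chr12:85473640-85473919 (Fos, plus). Motifs were counted in the whole RefSeq window of 300 bases, which runs 20 bases further past the start than the stretches printed. Of the 38 mitosis genes tested, 30 had a promoter in the RefSeq table. TTTGAA or TTTAAA was present in 28 of these 30 promoters, against 27.8% of all 27025 promoters of the same length. CCAAT was present in 24 of the 30, and at least 2 copies in 15, against 37.9% and 12.2% of all promoters. The Top2a promoter held 6 copies of CCAAT and 2 of TTTGAA. Cenpf and Birc5, also among the mitosis genes with the smallest p-values, are not printed. The Cenpf promoter held 2 copies of CCAAT and 1 each of TTTGAA and TTTAAA. The Birc5 promoter held 1 TTTAAA and no TTTGAA or CCAAT. The Fos promoter held 2 copies of TGACG, which 21% of all promoters hold. A match here is a description of the letters, and binding was not measured.

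Few genes passed the adjusted test. edgeR's quasi-likelihood test called 1 gene at a Benjamini-Hochberg adjusted p under 0.05, which is 0.00752% of the genes tested. At an unadjusted p under 0.05, 873 genes were higher in KO liver (6.56%) and 872 were lower (6.56%), where 665 in all would be expected with no difference at all. Every KO library lay above every WT library for 201 genes (1.51%) and below for 170 (1.28%); on plain library sizes these were 280 and 111. The log2 ratio of KO to WT was below 0 for 6648 genes (50.0%), and its median was near 0. DESeq2 on the same counts called 138 genes (1.04%), 62 higher and 76 lower in KO. Below, a gene other than Hectd2os did not pass the edgeR test, and its values are given as measured levels.

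Prkce itself did not separate the livers. It stood at 10.6, 8.83, 14.3, 8.64 and 13.3 CPM in KO 1 to 5 and at 10.6, 15.2, 12.9, 19.96 and 12.8 CPM in WT 1 to 5. The groups overlapped, with 2 KO livers below the lowest WT liver and WT 4 the highest. The means were 11.1 ± 2.58 and 14.3 ± 3.56 CPM (SD, n = 5 each), a ratio of 0.781 with a 95% confidence interval of 0.595 to 1.02. An exact two-sided permutation test over every assignment of 5 and 5 libraries (252) gave p = 0.135, where 0.00794 is the smallest it can give. In the fat pad of the same genotypes Prkce stood at 31.1 ± 5.58 and 50.5 ± 14.5 CPM (SD, n = 5 each), and the KO effect did not differ detectably between the tissues (interaction adjusted p = 0.962). The labels do not say whether fat and liver libraries with the same number come from 1 mouse, and every fit of all 20 libraries treats them as independent. Of the other kinases of the family, Prkcz stood at 23.4 ± 2.45 CPM in KO and 19.3 ± 2.09 in WT, a ratio of 1.21 (1.04 to 1.41). Prkca, at a ratio of 1.15 (0.951 to 1.40), and Prkcd, at 0.890 (0.745 to 1.06), had intervals that include 1. Of 16 tested members of a wider list built around the protein kinase C family, 1 was lower and 3 higher at an unadjusted p under 0.05 (6.56% of all genes each way).

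Hectd2os, an antisense RNA, rose in KO liver. It lies at chr19:36614052-36705641 (minus strand, GRCm38), where it overlaps the 3′ end of Hectd2, which encodes a ubiquitin ligase. Its level was 51.9, 69.3, 61.4, 87.2 and 85.2 CPM in KO 1 to 5 and 36.6, 30.4, 33.7, 33.6 and 34.2 CPM in WT 1 to 5. Every KO liver was above every WT liver, and the WT livers lay within a narrow band. The means were 71.0 ± 15.2 and 33.7 ± 2.20 CPM (SD, n = 5 each), a ratio of 2.10 (95% confidence interval 1.73 to 2.56, adjusted p = 0.011). The call was lost without WT 3 (adjusted p = 0.0623), without WT 5 (0.0706), without both livers highest in Acta1 (0.0839), without both highest in Slc4a1 (0.0791), with all 20 libraries in 1 fit (0.0705) and after removal of the GC and length trends (0.0743), with the direction kept. Hectd2 stood at 3.23 ± 0.702 CPM in KO and 2.06 ± 1.15 in WT, with overlapping groups; the library kit keeps strand but the setting of the counting is not given, so reads from the overlap may belong to either gene. In fat Hectd2os was low, at 5.05 ± 0.896 and 3.83 ± 1.44 CPM (SD, n = 5 each).

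**Figure D1:**
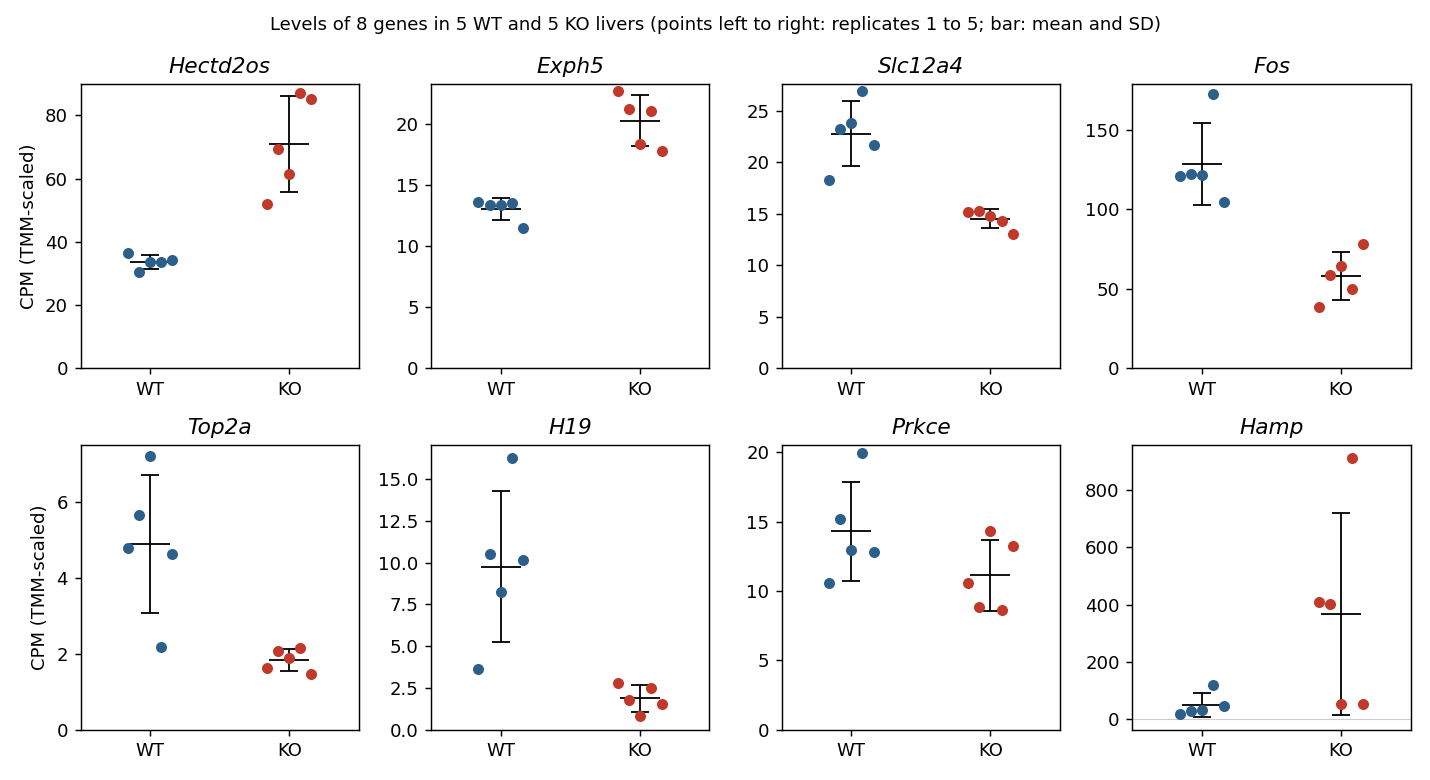
Level in CPM (vertical axes, linear) of 8 genes in each of 5 WT and 5 KO livers; points are libraries in the order of their replicate numbers, and the bars are the mean and SD. The groups do not overlap for Hectd2os, Exph5, Slc12a4, Fos, Top2a and H19, and they overlap for Prkce and Hamp.

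Another 3 genes had an adjusted p of 0.0831 each and groups that did not overlap. Exph5, an effector of Rab27 in vesicle transport, stood at 22.8, 21.3, 18.4, 21.1 and 17.8 CPM in KO livers and at 13.6, 13.4, 13.4, 13.6 and 11.5 in WT livers, a ratio of 1.55 (1.34 to 1.79). Slc12a4, a potassium-chloride cotransporter, stood at 15.2, 15.3, 14.8, 14.3 and 13.0 CPM in KO and at 18.3, 23.2, 23.9, 27.0 and 21.7 in WT, a ratio of 0.637 (0.544 to 0.746). Fos, the immediate early transcription factor, stood at 38.2, 58.6, 64.5, 50.1 and 78.1 CPM in KO and at 121, 122, 121, 172 and 105 in WT, a ratio of 0.452 (0.345 to 0.591). The highest KO liver for Fos lay below the lowest WT liver, at 78.1 against 105 CPM.

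Further genes with small p-values had adjusted p-values between 0.121 and 0.211, and of those named here all but Gal3st1 had separate groups. Higher in KO were Necab1, a neuronal calcium-binding protein gene, at 46.4 ± 7.66 against 29.6 ± 2.99 CPM (SD, n = 5 each), and Fam13a, a gene linked to fat distribution, at 46.4 ± 2.44 against 32.2 ± 4.27. Tfpi2, a serine protease inhibitor, had a ratio of 1.40 (1.22 to 1.61). Cxcl11, an interferon-induced chemokine gene that the annotation marks as a polymorphic pseudogene, had 1.87 (1.44 to 2.42). Adnp, a homeobox gene, had 2.29 (1.61 to 3.27). Cebpb, a transcription factor of the hepatocyte acute phase and gluconeogenic programmes, stood at 85.1 ± 18.2 CPM in KO and 42.7 ± 12.7 in WT, with a lowest KO value of 59.8 and a highest WT value of 57.3. Cebpb was also higher in KO fat, at 46.1 ± 18.2 against 16.1 ± 11.3 CPM (SD, n = 5 each), whereas Fam13a was 345 ± 107 in KO fat and 506 ± 130 in WT fat; the interaction test for Fam13a gave an adjusted p of 0.832. Among abundant genes Ddah1, which degrades methylated arginines that inhibit nitric oxide synthase, had a ratio of 1.29 (1.13 to 1.46) and Rmnd5a, a subunit of a ubiquitin ligase, 1.25 (1.10 to 1.41). Lower in KO were the imprinted RNA H19, at 1.87 ± 0.784 against 9.76 ± 4.54 CPM, the extracellular superoxide dismutase Sod3, with a ratio of 0.712 (0.623 to 0.814), and the secreted peroxidase Gpx3, with 0.564 (0.421 to 0.756). Gal3st1, a sulfotransferase that makes sulfatide, stood at 0.423 to 1.56 CPM in KO and at 5.55 to 7.87 in 4 WT livers, but at 0.755 in WT 2. Without WT 2, Gal3st1 was called (adjusted p = 0.00195). Leaving out that library separates the groups by construction, so this call gives no support. Fos had 22.3 ± 15.7 CPM in KO fat and 15.4 ± 11.6 in WT fat, and the interaction test did not pass (adjusted p = 0.903).

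Genes of mitosis were lower in KO liver as a group of low-level transcripts. Of 50 genes in the list, 38 passed the filter on low counts; 27 of these were lower in KO at an unadjusted p under 0.05 and 0 higher, beside 6.56% of all genes lower, and the median log2 ratio was -0.91. In 11 of the 38, every KO liver lay below every WT liver, beside 1.28% of all genes. No member was called by edgeR, and DESeq2 called 10, beside 1.04% of all genes. Because a gene could pass the filter through its WT libraries alone, these counts describe the list and give it no support. With no filter all 50 members were fitted, of which 33 were lower at that p. It was 14 of 50 with all 20 libraries in 1 fit, 16 of the 25 members with at least 1 CPM in 5 libraries, and among the 28 members with a mean of at least 1 CPM over all 10 livers it was 20.

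The levels were low and differed between WT livers. Top2a, which untangles DNA in dividing cells, stood at 1.62, 2.08, 1.90, 2.14 and 1.48 CPM in KO 1 to 5 and at 4.81, 5.67, 7.23, 2.19 and 4.63 in WT 1 to 5, a ratio of 0.376 (0.256 to 0.553). WT 4 lay close to the KO livers, and Top2a was called without it (adjusted p = 0.0163). Mki67, the proliferation marker, stood at 3.75, 3.18, 4.98, 4.03 and 3.33 CPM in KO and at 9.78, 25.8, 25.1, 6.38 and 8.28 in WT, so WT 2 and WT 3 were the highest. Prc1, which bundles microtubules of the spindle midzone, had means of 0.554 ± 0.319 and 1.85 ± 0.334 CPM, and its range in KO lay below that in WT. Prc1 was called without KO 3 (adjusted p = 0.0433). Both calls came after 1 library was left out, WT 4 being the WT liver nearest to KO for Top2a, and neither is support. Ccnb2, a cyclin of mitotic entry, had a ratio of 0.355 (0.222 to 0.568), Cenpf, a kinetochore protein, 0.295 (0.163 to 0.537), and Birc5, a subunit of the chromosomal passenger complex, 0.494 (0.343 to 0.713), each with separate groups.

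Genes of the earlier phases of the cell cycle were counted separately. Of 34 tested DNA replication genes, 5 were lower and 1 higher at an unadjusted p under 0.05, beside 6.56% of all genes each way. Their median log2 ratio was -0.18. Ccne1, the cyclin of the start of replication, had a ratio of 0.538 (0.380 to 0.761), and Mcm6, a subunit of the replicative helicase, 0.653 (0.511 to 0.834). Of the 17 G1 cyclins and inhibitors tested, 1 was lower and 4 were higher, beside 6.56% of all genes each way. Cdk6, a G1 kinase, stood at 36.3 ± 3.67 CPM in KO and 30.3 ± 0.677 in WT, with separate groups.

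Erythroid transcripts were lower in KO liver and highest in 2 of the WT livers. Of 12 listed genes 10 were tested. At an unadjusted p under 0.05, 7 were lower in KO and 0 higher, beside 6.56% of all genes each way. The median log2 ratio was -1.01. Slc4a1, the anion exchanger of red cells, stood at 0.558, 0.713, 4.22, 0.195 and 0.740 CPM in KO 1 to 5 and at 4.34, 32.9, 31.0, 6.04 and 4.199 in WT 1 to 5. WT 2 and WT 3 were far above the rest, and KO 3 reached the level of the other WT livers. Hba-a1, an alpha globin, stood at 71.2 ± 33.5 CPM in KO and 141 ± 57.9 in WT; its near-identical copy Hba-a2 makes its counts uncertain. Ctse, an aspartic protease found in red cells and gastric cells, stood at 0.448 ± 0.109 and 2.85 ± 2.75 CPM, with WT 2 and WT 3 highest. The summed level of the erythroid list ran from 219 to 508 CPM in KO livers and from 350 to 1062 in WT livers. The count of 7 became 3 without KO 1, KO 4, WT 2 or WT 3, and 4 without KO 5.

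WT 2 and WT 3 were also the 2 livers with the highest mitosis score, where a score averages, over the tested genes of a list, the log2 CPM in a library less its mean over the 10 livers. Their scores were 0.62 and 0.75, against -0.15 to 0.39 in the other WT livers and -0.48 to -0.15 in KO. Without these 2 libraries, an alternative chosen after seeing the data, 15 of 39 mitosis genes were lower at an unadjusted p under 0.05 and 0 higher, with a median log2 ratio of -0.63, and 2 of the 10 erythroid genes were lower. The part of erythroid cells in the mitosis difference was not tested further. In bulk tissue, fewer cells of a type and less RNA per cell cannot be told apart.

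**Figure D2:**
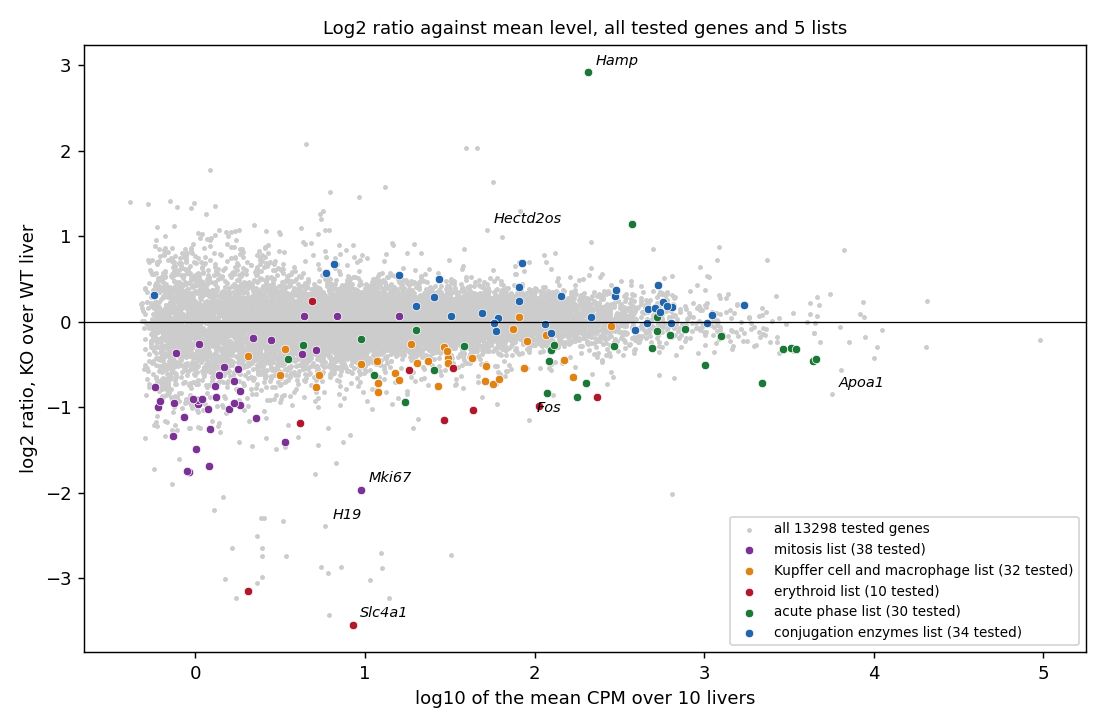
Log2 ratio of KO to WT (vertical axis) against the log10 of mean CPM over the 10 livers (horizontal axis) for the 13298 tested genes (grey) and the tested members of 5 lists (coloured). The mitosis genes sit at the low end of the levels and mostly below 0, the Kupffer cell and macrophage genes mostly below 0 over a wide range of levels, and Hamp has the highest log2 ratio, at 2.92.

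Transcripts of Kupffer cells and macrophages were lower in KO liver in most members. All 32 listed genes were tested. At an unadjusted p under 0.05, 20 were lower and 0 higher, beside 6.56% of all genes each way. A log2 ratio below 0 was found for 31, beside 50.0% of all genes. The median ratio was 0.716. No member was called by edgeR, and DESeq2 called 4, beside 1.04% of all genes. Clec4f, the lectin that defines Kupffer cells, stood at 131, 127, 135, 126 and 112 CPM in KO 1 to 5 and at 221, 197, 175, 122 and 149 in WT 1 to 5. WT 4 lay within the KO range, and the other 4 WT livers lay above it. Cd5l, a secreted macrophage scavenger protein, had a ratio of 0.639 (0.482 to 0.848). Cd68, a lysosomal macrophage protein, had 0.607 (0.473 to 0.779), and the Fc receptor Fcgr3 had 0.566 (0.422 to 0.759). C1qa and C1qc, subunits of the first complement component, which macrophages make, stood at 39.2 ± 7.26 against 63.4 ± 20.6 and at 43.0 ± 9.03 against 71.4 ± 21.3 CPM (SD, n = 5 each).

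The macrophage score was highest in WT 1 and WT 2, at 0.63 and 0.54, and it was -0.28 in WT 4, as low as in KO livers (-0.33 to -0.02). Without WT 1, or without WT 2, 13 members were lower at that p, 11 without both livers highest in Slc4a1, and 2 with all 20 libraries in 1 fit. The summed level of the list ran from 1337 to 1572 CPM in KO and from 1326 to 2278 in WT. Inflammatory genes had 8 of 25 tested members lower and 1 higher, beside 6.56% of all genes each way. Nlrp3, the inflammasome sensor, had a ratio of 0.4995 (0.331 to 0.753). The adhesion molecule Vcam1 had 0.691 (0.539 to 0.887), and Tgfb1 had 0.772 (0.639 to 0.932). Of the other non-parenchymal lists, 4 of 25 endothelial genes and 2 of 23 stellate and fibroblast genes were lower, beside 6.56% of all genes, 1 of 18 lymphocyte genes was lower, and 0 of 11 cholangiocyte genes passed that p in either direction.

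**Figure D3:**
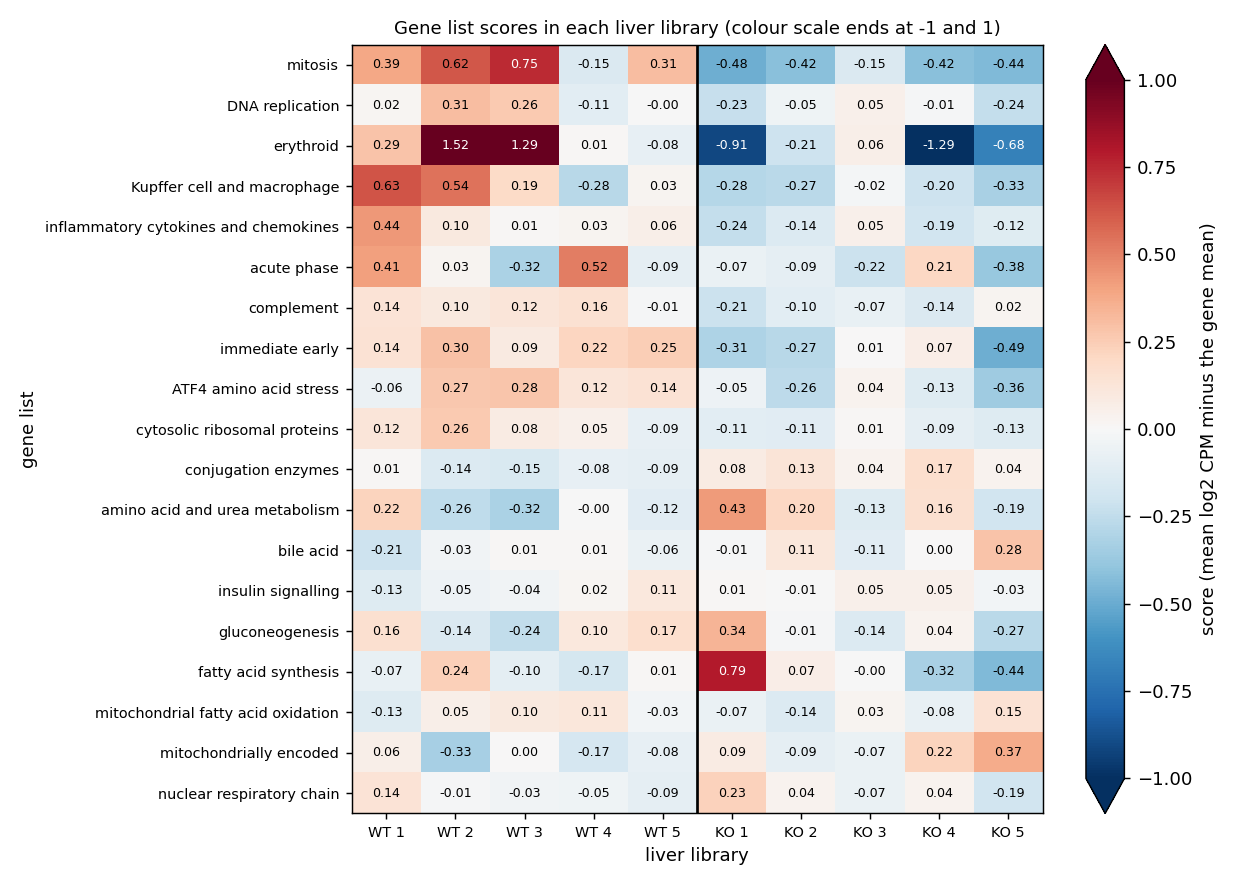
Score of 19 gene lists (rows) in each WT and KO liver (columns), as the average over tested genes of the log2 CPM less its mean over the livers; red is high and blue low, and each cell prints its score. The mitosis row runs from -0.48 to -0.15 in KO livers and is -0.15 in WT 4, the macrophage row is highest in WT 1 and WT 2, and the fatty acid synthesis row is highest in KO 1, at 0.79.

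Plasma proteins of the acute phase were lower in KO liver for part of the list. Of 30 tested members 12 were lower at an unadjusted p under 0.05 and 1 higher, beside 6.56% of all genes each way. The median ratio was 0.805. Itih3, whose protein binds hyaluronan, stood at 787, 789, 871, 790 and 932 CPM in KO 1 to 5 and at 1154, 1240, 1240, 1385 and 917 in WT 1 to 5, a ratio of 0.702 (0.590 to 0.836); WT 5 lay among the KO livers. Haptoglobin, Hp, stood at 1663 ± 381 CPM in KO and 2740 ± 854 in WT. The fibrinogen genes Fga and Fgb had ratios of 0.728 (0.593 to 0.894) and 0.737 (0.601 to 0.904). Lbp, which presents bacterial lipopolysaccharide, had 0.729 (0.594 to 0.893), and the metallothionein Mt1 had 0.610 (0.440 to 0.845). Without WT 2 and WT 4, the livers with muscle transcripts, 6 members were lower, and 1 was lower with all 20 libraries in 1 fit.

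The complement list had 7 of 23 tested members lower and 1 higher at that p, beside 6.56% of all genes each way. The 7 include F12, a coagulation factor that is also in the coagulation list. Cfi, the protease that cleaves the active complement fragments, stood at 659 ± 57.1 CPM in KO and 808 ± 36.6 in WT, with separate groups. C8a, a part of the membrane attack complex, had a ratio of 0.605 (0.426 to 0.861), Cfp, the stabiliser properdin, 0.641 (0.486 to 0.846), and C3, the central component, 0.817 (0.671 to 0.994). The count of 7 was 4 without KO 4, WT 1 or WT 4. Among the most abundant hepatocyte genes, Apoa1, the main protein of high-density lipoprotein, stood at 4370, 4394, 3736, 3430 and 4218 CPM in KO and at 4810, 11177, 9425, 5201 and 5687 in WT. Every KO liver lay below every WT liver, and WT 2 and WT 3 were far above the other WT livers. Ahsg, fetuin A, stood at 8540 ± 567 and 11455 ± 1777 CPM, with separate groups and the same 2 WT livers highest.

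Unlike most of the acute phase list, Hamp stood higher in KO liver on average. Hamp encodes hepcidin, the hormone that blocks iron export and answers to bone morphogenetic protein (BMP) signals. It stood at 410, 402, 52.7, 912 and 51.5 CPM in KO 1 to 5 and at 18.6, 28.3, 30.01, 120 and 46.0 in WT 1 to 5. KO 1, KO 2 and KO 4 were above every WT liver, while KO 3 and KO 5 lay within the WT range. The ratio was 7.55 with a wide interval of 1.66 to 34.3 and an adjusted p of 0.280. Its paralog Hamp2 stood at 944, 559, 321, 653 and 112 CPM in KO and at 268, 238, 105, 220 and 345 in WT; reads of the 2 genes may be shared by counting. Id1, a BMP target, was named after its values were seen. It stood at 8.57, 6.69, 3.37, 20.3 and 1.53 CPM in KO, with the same 3 KO livers highest. In WT it stood at 2.95, 2.59, 3.21, 3.64 and 4.01. A part of BMP signals in the level of Hamp was not tested. A1bg, a plasma glycoprotein of female mouse liver, stood at 7.86 to 165 CPM in KO and 5.68 to 37.4 in WT, with a ratio of 4.07 (1.06 to 15.7).

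Immediate early genes besides Fos were lower in part. Of 29 tested, 7 were lower at an unadjusted p under 0.05 and 0 higher, beside 6.56% of all genes each way. The median ratio was 0.809. Gadd45b, a stress-induced regulator, stood at 2.25 ± 0.916 CPM in KO and 5.84 ± 2.62 in WT. Btg2, an antiproliferative gene, had a ratio of 0.684 (0.521 to 0.898), and Jun, the partner of Fos in AP-1, 0.752 (0.582 to 0.973). The count was 4 without KO 5 or without WT 2, 3 without the pair with muscle transcripts, and 3 with the GC and length trend removed. Of 21 tested targets of the amino acid stress factor ATF4, 3 were lower and 2 higher, beside 6.56% of all genes each way. Among the 17 with a mean of at least 1 CPM over all 10 livers, 2 were lower and 2 higher. The 2 higher were Cebpb, given above, and Cth, with a ratio of 1.47 (1.01 to 2.14). Asns averaged 0.730 CPM and could pass the filter on low counts mainly through its WT libraries. Asns, asparagine synthetase, stood at 0.190 to 0.581 CPM in KO and 0.405 to 2.63 in WT, and Chac1, which degrades glutathione, at 2.404 to 4.82 and 4.11 to 24.4.

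**Figure D4:**
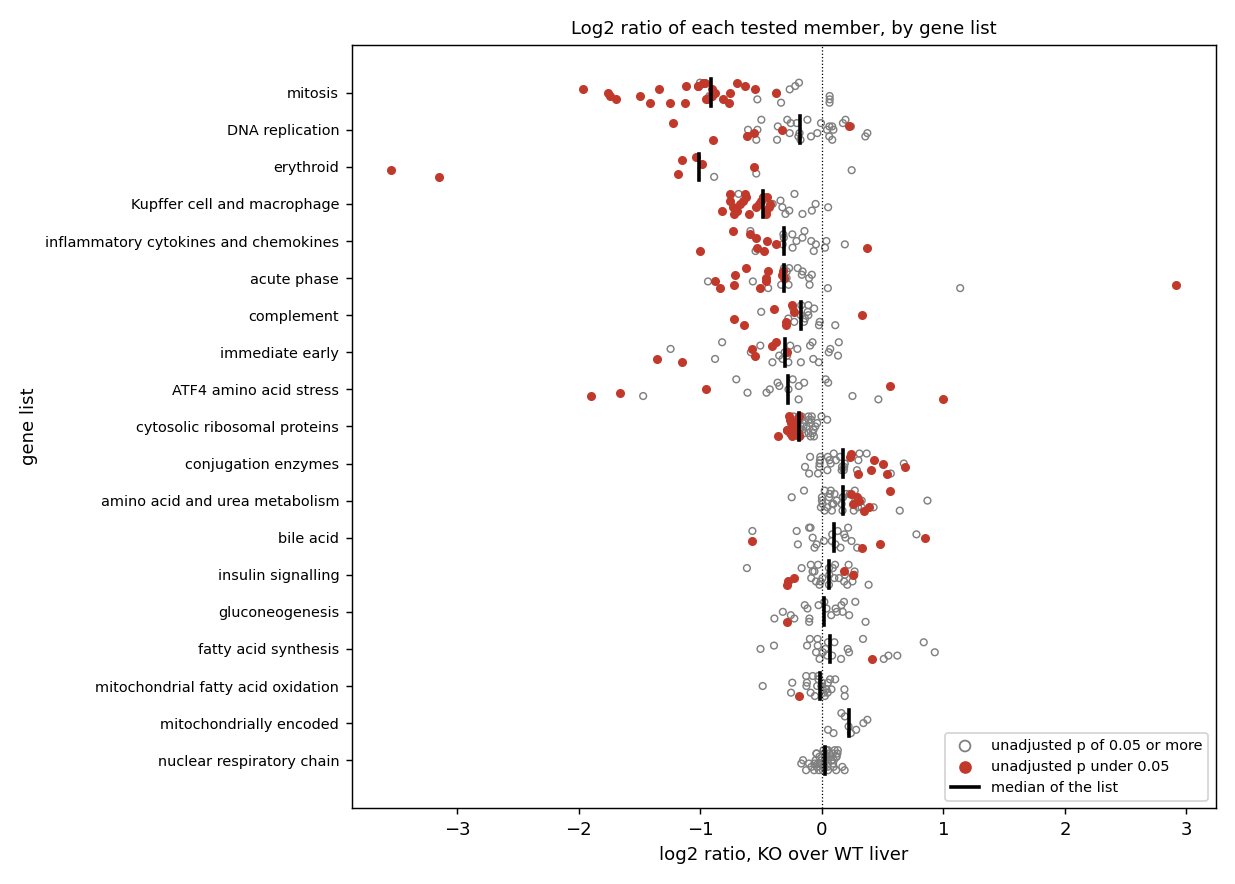
Log2 ratio of KO to WT (horizontal axis) for each tested member of 19 lists (rows); filled red points have an unadjusted p under 0.05, open points do not, and the black bar is the median of the list. Mitosis, erythroid and macrophage medians lie at -0.91, -1.01 and -0.48, whereas the lists of insulin signalling, gluconeogenesis and fatty acid oxidation lie near 0.

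Genes of conjugation and of amino acid breakdown stood slightly higher in KO liver. Conjugation enzymes attach sulfate, glucuronide or glutathione to drugs and hormones. Of 34 tested, 8 were higher at an unadjusted p under 0.05 and 0 lower, beside 6.56% of all genes each way. Their median ratio was 1.13. The sulfotransferase Sult1c2 stood at 14.0, 20.3, 20.3, 19.9 and 19.5 CPM in KO and at 13.1, 11.2, 14.0, 11.9 and 14.4 in WT, so KO 1 lay within the WT range. The glucuronosyltransferases Ugt3a1 and Ugt1a9 had ratios of 1.32 (1.10 to 1.58) and 1.61 (1.14 to 2.28); Ugt1a9 shares exons with other members of its locus, so its counts are uncertain. The count of 8 was 5 without KO 2, KO 4, WT 2 or WT 5, and 4 without KO 5. Of 37 cytochrome P450 genes, 4 were higher and 0 lower, beside 6.56% of all genes each way. Cyp3a25 stood at 562 ± 97.8 CPM in KO and 437 ± 73.7 in WT.

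Of 40 genes of amino acid and urea metabolism, 7 were higher and 0 lower at that p, beside 6.56% of all genes each way. Their median ratio was 1.13. The count was 13 without KO 3 or WT 1, 11 without KO 5, and 4 without KO 1 or KO 4. Otc, the urea cycle enzyme that makes citrulline, stood at 619, 632, 537, 633 and 640 CPM in KO and at 550, 430, 501, 444 and 476 in WT, with KO 3 alone below the highest WT liver. Kynu, an enzyme of tryptophan breakdown, had a ratio of 1.31 (1.10 to 1.55), and Cps1, the first enzyme of the urea cycle, 1.26 (0.882 to 1.79).

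Of 24 tested genes of bile acid metabolism, 3 were higher in KO and 1 lower at an unadjusted p under 0.05, beside 6.56% of all genes in each direction. Cyp7a1, the rate-limiting enzyme of bile acid synthesis, stood at 576, 713, 405, 471 and 1051 CPM in KO and at 574, 262, 311, 381 and 261 in WT, a ratio of 1.80 (1.14 to 2.83); WT 1 lay among the KO livers. Akr1d1, a later enzyme of the pathway, had a ratio of 1.39 (1.12 to 1.73), and the canalicular export pump Abcb11 had 1.26 (1.08 to 1.47). Nr0b2, the repressor SHP that acts on Cyp7a1, had 0.673 (0.510 to 0.888).

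Of 31 insulin signalling genes, 3 were lower in KO and 2 higher at an unadjusted p under 0.05, beside 6.56% of all genes in each direction, with a median log2 ratio of 0.06. The insulin receptor Insr stood at 248 ± 10.6 CPM in KO and 230 ± 20.7 in WT, a ratio of 1.08 (0.944 to 1.23). Ptpn1, a phosphatase of that receptor, had 0.819 (0.716 to 0.937), and the kinase Akt1 0.823 (0.689 to 0.984). The gluconeogenic enzymes Pck1 and G6pc had ratios of 0.801 (0.583 to 1.10) and 0.855 (0.438 to 1.67), and WT 5 had a G6pc level of 738 CPM where the other 9 livers lay between 154 and 368. In glycolysis Hk2, a hexokinase low in hepatocytes, had a ratio of 0.522 (0.368 to 0.739) and Pkm, the pyruvate kinase of non-hepatocytes, 0.717 (0.581 to 0.885). Txnip, an inhibitor of glucose uptake, had 0.662 (0.466 to 0.941).

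Of 24 fatty acid synthesis genes, 0 were lower and 1 higher at an unadjusted p under 0.05, beside 6.56% of all genes each way. Scd1, the desaturase that makes oleate, stood at 24665, 5581, 5682, 5016 and 1866 CPM in KO and at 6567, 5481, 2773, 4460 and 4659 in WT. KO 1 was far above the other 9 livers, and it was also highest in Fasn, the fatty acid synthase, at 1366 CPM against 280 to 718 elsewhere. Without KO 1 the log2 ratios of Scd1 and Fasn turned from 0.84 and 0.22 to -0.08 and -0.24. Fatty acid oxidation had 1 of 26 members lower and 0 higher, and the PPARα list had 1 of 31 lower and 0 higher. Lpl, a lipase of triglyceride-rich lipoproteins, stood at 25.9 ± 6.43 CPM in KO and 42.8 ± 10.3 in WT, while Cd36, a fatty acid transporter, had a ratio of 1.29 (1.02 to 1.63). Car3, a carbonic anhydrase abundant in fat and in liver, had 1.64 (1.21 to 2.23). Adipocyte markers were highest in WT 4 and WT 5, where Adipoq stood at 4.32 and 4.45 CPM against 1.10 or less in the other 8 livers. Their scores for the adipocyte list were 0.47 and 0.69, against -0.36 to 0.14 elsewhere. Car3, in that list too, was not highest in these livers, at 651 and 1054 CPM.

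Ribosomal protein genes were lower by a small amount, with 48 of 49 below a log2 ratio of 0, beside 50.0% of all genes. Their median ratio was 0.878, and 16 were lower at an unadjusted p under 0.05, beside 6.56% of all genes. Rplp0 stood at 268 ± 18.7 CPM in KO and 318 ± 21.6 in WT with separate groups, and Rps9 had a ratio of 0.778 (0.660 to 0.917). The count of 16 was 10 without KO 1 or KO 2, 8 without WT 2, 28 without WT 5, and 1 without WT 2 and WT 4 together. Ubb, a polyubiquitin gene, stood at 240 ± 12.0 CPM in KO and 311 ± 27.9 in WT with separate groups. Genes of the clock had 4 of 21 higher and 1 lower at that p, beside 6.56% of all genes each way. Nr1d2, a repressor of the clock, stood at 203 ± 13.8 CPM in KO and 166 ± 18.8 in WT, with separate groups. Clock had a ratio of 1.36 (1.08 to 1.72). No nuclear gene of the respiratory chain passed that p in either direction, of 46 tested.

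Log2 ratios followed the base composition of the transcripts. By quintiles of GC content from the lowest to the highest, the median log2 ratio was 0.16, 0.06, near 0, -0.07 and -0.12. The mean GC trend per library was -0.0833 ± 0.182 log2 units per 10 GC points in KO and 0.0833 ± 0.0808 in WT (SD, n = 5 each; exact two-sided permutation test p = 0.0556, 0.0952 adjusted over 4 library measures). KO 5 alone was at -0.402; without it the KO mean was -0.00373 ± 0.0417 (SD, n = 4; exact p = 0.103), and the quintile medians ran from 0.092 to -0.061. Transcripts low in GC stood higher in KO. Malat1, a nuclear RNA, had a ratio of 1.45 (1.17 to 1.80) and Xist 1.44 (1.13 to 1.82). The 9 tested mitochondrially encoded genes, among them the ribosomal RNAs mt-Rnr1 and mt-Rnr2, all had a log2 ratio above 0, with a median of 0.22. Over all genes, 50.0% lay below 0. None of the 9 had an unadjusted p under 0.05. The smallest p was that of mt-Co1, which stood at 22272 ± 2251 CPM in KO and 18862 ± 1921 in WT, with overlapping groups. After removal of the GC and length trends, that median was -0.01. The mitosis and macrophage medians were -0.92 and -0.49 after this removal.

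**Figure D5:**
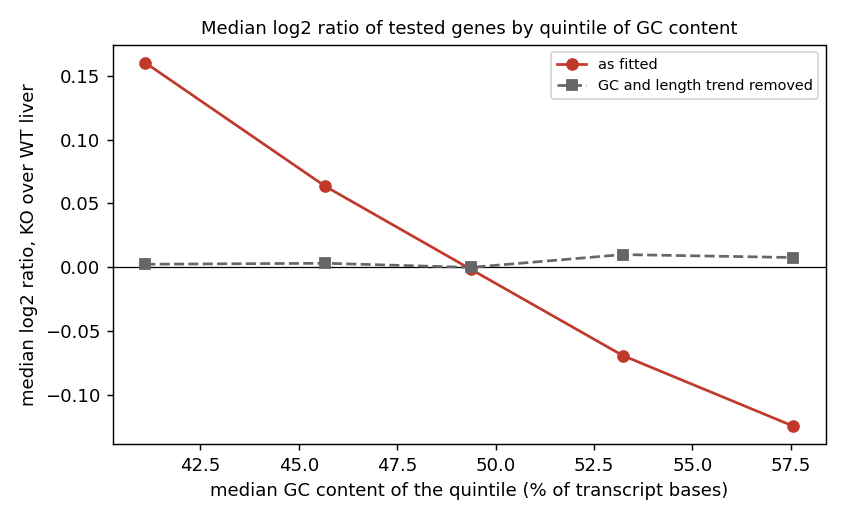
Median log2 ratio of KO to WT (vertical axis) for quintiles of the tested genes by GC content (horizontal axis, median GC of the quintile in percent), as fitted and after the GC and length trends of the libraries were removed. The medians run from 0.16 in the lowest quintile to -0.12 in the highest, and lie near 0 after the removal.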

How the data were processed

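Liver RNA was extracted with an RNeasy kit and made into stranded TruSeq mRNA libraries, per the labels' protocols. RSEM 1.2.12, STAR 2.4.0d, Trim Galore 0.2.8, DESeq2 and the build GRCm38 appear in the submitters' processing notes, without settings or strand. The authors deposited expected counts per gene, which are not normalized. They were rounded, filtered with filterByExpr (minimum count 10, minimum total 15) and scaled by TMM. KO and WT livers were compared with edgeR 4.0.16 (quasi-likelihood, robust; limma 3.58.1, R 4.3.3), and p-values were adjusted over all 13298 genes by Benjamini-Hochberg. Intervals are 95% and come from the fit. Symbols came from GENCODE (48058 of 48440 genes matched). The steps were tested on simulated counts, drawn independently for each gene. These held no shared shift of muscle, erythroid, adipocyte or GC-linked genes in a library, so that test does not cover such differences.

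The 54 gene lists, with 1428 symbols of which 8 were not in the table, and the genes named were chosen with earlier results of these data known. Genes were named when called, among the 30 smallest p-values, the 15 smallest among genes averaging 100 CPM or more, the 8 highest and 8 lowest ratios, or the 20 smallest DESeq2 p-values, or as leading members of a list by p or level; Hectd2, Xist, Id1 and Insr were chosen after seeing their values. A few further genes that meet this rule are left out here. Alternatives were RLE and upper-quartile scaling, other filters, DESeq2 1.42.0, limma-voom with quality weights, a replicate block, all 20 libraries in 1 fit, removal of GC and length trends, and each library or the pair highest in Acta1 left out; leaving out the pair highest in Slc4a1 was added after seeing the data. Pairs of libraries within a group differed by more than counting error, so none was counted as a duplicate. The labels say 5 mice per group; depth limits the low genes most.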

Additional observations from a re-analysis of the deposited data

Results flagged for a closer look

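A library was noted when its gap to the nearest of the 5 livers of its group was over 0.71 of the group's range (Dixon's test). Of 316 groups of 5 checked, 23 had such a library, and chance gives about 1 in 20.

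In KO 1, Scd1 stood at 24665 CPM, C3 at 7030 and Sult1c2 at 14.0, and the glycerolipid synthesis score was 0.18. In KO 3, Slc4a1 stood at 4.22 CPM, Otc at 537 and Gadd45b at 3.84; the mitosis score was -0.15 and the ribosomal protein score 0.0124. In KO 4, Cd36 stood at 157 CPM, the lymphocyte score was 0.72 and the antioxidant score 0.0765. In KO 5, Asns stood at 0.581 CPM and the GC trend was -0.402 log2 units per 10 points.

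In WT 1, mt-Co1 stood at 22274 CPM, the share of counts from mitochondrially encoded genes was 5.17%, and the inflammatory score was 0.44. In WT 2, Nr1d2 stood at 133 CPM. In WT 3, the score of female-biased genes was -0.68. In WT 4, Fos stood at 172 CPM and Hamp at 120 CPM. In WT 5, Exph5 stood at 11.5 CPM and G6pc at 738 CPM.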

How the results depend on the processing

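The number of genes called was 1; it was 0 with the GC and length trend removed, 2 with all 20 libraries in 1 fit, 3 with limma-voom, 15 with no filter, 138 with DESeq2 and 3 without the pair highest in Acta1, and it ran from 0 to 3 with each library left out. Replicate numbers did not pair the livers: correlations of same-numbered libraries ran from -0.227 to 0.2509, and with the replicate block 3 genes were called, Hectd2os and the globins Hba-a1 and Hbb-bt. The log2 ratio of Hectd2os was 0.81 with the trend removed, 1.08 with all 20 libraries, 1.02 without the Acta1 pair and 1.03 without the pair highest in Slc4a1, uncalled in each, and ran from 0.99 to 1.17 with each library left out. Prkce stayed below 0 and uncalled in every setting. On plain library sizes 111 genes had every KO liver below every WT liver, against 170. The genes with an unadjusted p under 0.05 were 403 higher and 597 lower without the Acta1 pair, and 605 higher and 569 lower without the Slc4a1 pair.

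For the members lower at that p, all 20 libraries in 1 fit gave 14 mitosis, 2 macrophage and 1 acute phase genes; at least 1 CPM in 5 libraries gave 16 mitosis genes; without the Acta1 pair it was 3 erythroid, 6 acute phase and 3 immediate early genes; without the Slc4a1 pair it was 15 mitosis, 11 macrophage and 2 erythroid genes; and the trend removal gave 3 immediate early genes. With each library left out, the counts ran from 23 to 32 for mitosis, 13 to 25 for macrophages, 3 to 9 for erythroid, 9 to 13 for acute phase and 4 to 7 for immediate early genes. The cause of these shifts was not tested. Of the genes named, directions turned for Scd1 and Fasn without KO 1, G6pc without WT 5 and Acta1 (0.61) without the Acta1 pair; with each library left out the log2 ratios ran from -0.078 to 1.096 for Scd1, from -0.24 to 0.42 for Fasn and from -0.41 to 0.31 for G6pc. Depth limits the mitosis genes, most of which lie near 1 CPM.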
